A study of Homo sapiens with 6 samples.

Results

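The genes described here are 55 genes of DNA replication and mitosis, taken by name from the 17222 gene names of an RNA-seq count table. They form a pair of arms. The G1/S and replication arm holds 27 genes, and the G2/M arm holds 28. The names stand for known roles in the cell cycle. The rule picks them by name and uses no measured value, but the list was chosen with earlier results of these data known.

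A dividing cell copies its DNA once and then shares it between its daughters. Before S phase, CDC6 and CDT1 load the MCM helicase at origins, and cyclin E with CDK2 sets off replication. CDC45 and the GINS complex activate the helicase, PCNA and the polymerases copy the strands, and ribonucleotide reductase and thymidylate synthase supply the nucleotides. In G2 and mitosis, CDK1 with its cyclins, the CDC25 phosphatases, the Aurora and Polo kinases and the kinesins of the spindle take over. Many genes of the first wave are known targets of E2F factors. Many genes of the second wave are known to be read through CHR and CCAAT elements in their promoters. Transcript levels of both waves are commonly read as a sign of how many cells of a culture are cycling.

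The RNA came from H226, an established line of human lung squamous carcinoma, collected 48 h after transient transfection. The control group, ASO_CTRL, received a control antisense oligonucleotide, and the knockdown group, ASO_LINC, received ASO_LINC#3, a single oligonucleotide against *LINC00565*, the long non-coding RNA that the study names *SWINGN*. Each group had 3 libraries, labelled only as replicates. The study's reporting summary says of its experiments in general that they were biological triplicates unless a legend says otherwise, and nothing names separate cultures for these libraries, so the p-values measure the spread between these samples. The level of the targeted transcript itself was not analysed here, and with 1 oligonucleotide its effects cannot be told apart from those of the loss of its target.

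The libraries held from 3686828 to 10546786 reads on genes, and the one with the fewest was ASO_LINC replicate 3. That library also stood apart from the others of its group. Its counts differed from those of replicates 1 and 2 with a chi-square per degree of freedom of 14.4 and 15.6, against 2.63 between replicates 1 and 2. Between the ASO_CTRL libraries the value was 13.1, 8.82 and 7.45. The closeness of ASO_LINC replicates 1 and 2 was thus the more unusual feature. Of the squamous markers looked at, *KRT5* lay between 62.5 and 117 TMM-scaled CPM (reads of a gene relative to the reads of its library) and *KRT6A* at 2.05 CPM or less, while *TP63*, *KRT14*, *SOX2* and *DSG3* were not analysed here. Of the general epithelial markers, *KRT8*, *KRT18* and *KRT19* averaged 1184, 5074 and 2046 CPM in ASO_CTRL, and *EPCAM* and *CDH1* were not analysed here. The fibroblast marker *COL1A1* averaged 320 CPM in ASO_CTRL and 124 CPM in ASO_LINC, and *DCN* and *LUM* were not analysed here. The mesothelial markers *CALB2*, *MSLN* and *WT1* were all detected. *CALB2* ran from 515 to 697 CPM in ASO_CTRL and from 118 to 208 CPM in ASO_LINC. The mitochondrial transcripts, 23 names, summed to between 30218 and 35479 CPM in ASO_CTRL and between 18491 and 19955 CPM in ASO_LINC. The part of these differences in the results that follow was not tested.

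Promoter sequences of 9 members are shown because these genes carry the main values below, or hold clear examples of the letters known for their arm. The sequences are from RefSeq on GRCh38.p14, and each gives the 150 bases before a start site, 5′ to 3′ on the strand of the gene. Capitals mark the letters searched for on both strands. These were the E2F letters TTTCCCGC, TTTGGCGC, TTTCGCGC and TTTGCCGC, the CHR letters TTTGAA and TTCGAA, and CCAAT. The E2F words share bases with each other where they sit back to back, as in *MCM6*, and CHR letters share bases with CCAAT in 1 place in *MKI67*. For *CDC25B* and *RRM2*, which have several start sites in the table, the site with such letters is shown.
KIF20A, chr5:138178962-138179111, plus strand: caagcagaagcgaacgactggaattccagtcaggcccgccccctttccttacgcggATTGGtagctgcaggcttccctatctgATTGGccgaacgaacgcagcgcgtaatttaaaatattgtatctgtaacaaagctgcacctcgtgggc
CDC25B, chr20:3796160-3796309, plus strand: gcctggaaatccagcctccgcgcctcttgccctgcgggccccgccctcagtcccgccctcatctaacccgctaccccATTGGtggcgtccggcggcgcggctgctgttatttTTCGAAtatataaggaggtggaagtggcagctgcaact
CCNB2, chr15:59104996-59105145, plus strand: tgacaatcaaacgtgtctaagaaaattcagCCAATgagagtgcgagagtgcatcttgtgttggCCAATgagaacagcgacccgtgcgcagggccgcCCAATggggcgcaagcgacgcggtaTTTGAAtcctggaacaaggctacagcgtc
MKI67, chr10:128126424-128126573, minus strand: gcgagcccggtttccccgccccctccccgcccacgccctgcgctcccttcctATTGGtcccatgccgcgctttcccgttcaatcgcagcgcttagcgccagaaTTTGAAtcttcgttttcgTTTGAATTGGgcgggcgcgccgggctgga
CDC6, chr17:40287729-40287878, plus strand: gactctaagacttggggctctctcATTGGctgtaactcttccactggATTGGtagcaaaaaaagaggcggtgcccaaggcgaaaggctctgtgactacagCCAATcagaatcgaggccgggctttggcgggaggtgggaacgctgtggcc
RRM1, chr11:4094535-4094684, plus strand: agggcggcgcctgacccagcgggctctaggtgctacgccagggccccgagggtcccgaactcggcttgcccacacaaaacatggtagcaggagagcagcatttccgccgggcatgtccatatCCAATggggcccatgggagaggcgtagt
RRM2, chr2:10122589-10122738, plus strand: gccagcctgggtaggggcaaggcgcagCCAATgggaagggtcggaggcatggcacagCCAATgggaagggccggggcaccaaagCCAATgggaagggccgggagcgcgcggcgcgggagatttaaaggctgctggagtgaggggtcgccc
TYMS, chr18:657503-657652, plus strand: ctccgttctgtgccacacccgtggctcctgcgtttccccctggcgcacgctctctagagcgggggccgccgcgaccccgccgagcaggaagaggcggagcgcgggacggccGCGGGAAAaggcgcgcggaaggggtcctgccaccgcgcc
MCM6, chr2:135876444-135876593, minus strand: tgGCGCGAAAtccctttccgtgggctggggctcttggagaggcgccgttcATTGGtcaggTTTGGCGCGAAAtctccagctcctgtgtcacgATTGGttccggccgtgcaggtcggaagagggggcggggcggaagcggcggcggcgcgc

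Of the 55 members, 45 were matched to a promoter, with 61 start sites between them. In the 250 bases before the start, the E2F letters stood in 40.0% of the windows of the G1/S arm, in 9.7% of those of the G2/M arm and in 2.8% of the 35116 windows of all genes. The CHR letters stood in 48.4% of the windows of the G2/M arm, in 6.7% of those of the G1/S arm and in 14.3% of all windows. CCAAT stood in 70.0% and 80.6% of the windows of the G1/S and G2/M arms and in 32.0% of all windows. The E2F letters were thus most frequent in the G1/S arm and the CHR letters in the G2/M arm. The fold changes below are also given with and without these letters. Of the G1/S members, the 11 with E2F letters had a median log2 fold change of -0.24 and the 11 without had one of -0.21, with 9 of 11 below 0 in both. Of the G2/M members tested, the 14 with CHR letters had a median of 0.0046 with 7 below 0, and the 9 without had one of -0.04 with 7 below 0. These are descriptions, and the presence of letters does not show that a factor binds. The search took only these exact letters, so members counted as without them may hold other forms of an element. The values therefore do not show whether having an element made a difference to the change.

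The comparison asked whether transcripts of replication and mitosis differed between ASO_LINC and ASO_CTRL. Only 1 member was called: *KIF20A*, a kinesin of cytokinesis, fell. A call needed a log2 fold change beyond 0.5 and an adjusted p below 0.01 (edgeR's quasi-likelihood test, Benjamini-Hochberg over 14660 genes), the thresholds of the study. Of all genes tested, 2.63% were called lower and 4.92% were called higher. The checkpoint kinase gene *TTK*, with between 1 and 7 reads per library, was too low to test, so 54 members were tested. No member was called higher, with 1 member higher at an unadjusted p below 0.05 and 0 called higher by DESeq2. At an unadjusted p below 0.05, 12 members were lower, which is 22.2% of those tested, against 15.3% of all genes lower and 17.1% higher.

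Most members had small differences in the same direction. Of the 54 tested, 40 had a fold change below 0, which is 74.1%, against 50.3% of all genes. The median log2 fold change was -0.18, against -0.0027 for all genes. A drop of more than 0.5 was no more frequent than elsewhere, at 6 members or 11.1% against 14.4% of all genes. In 14 members, or 25.9%, the 3 ASO_LINC libraries all lay under the 3 ASO_CTRL libraries, where 17.3% of all genes did so. In 3 members they all lay above, where 18.8% of all genes did so. The median SE was 0.17 for the members and 0.20 for all genes. The 95% interval of the fold change lay within 0.5 of 0 for 19 of the 54 members and for 2214 of the 14660 genes tested. It lay within 1 log2 unit on either side of 0 for 49 members, or 90.7%, against 67.1% of all genes. For those 49 a difference of 2-fold or more lay outside the interval. Smaller ones were often not detectable with these 6 libraries. In RNA from whole cultures, fewer cells in a phase and less RNA per cell cannot be told apart.

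**Figure D1:**
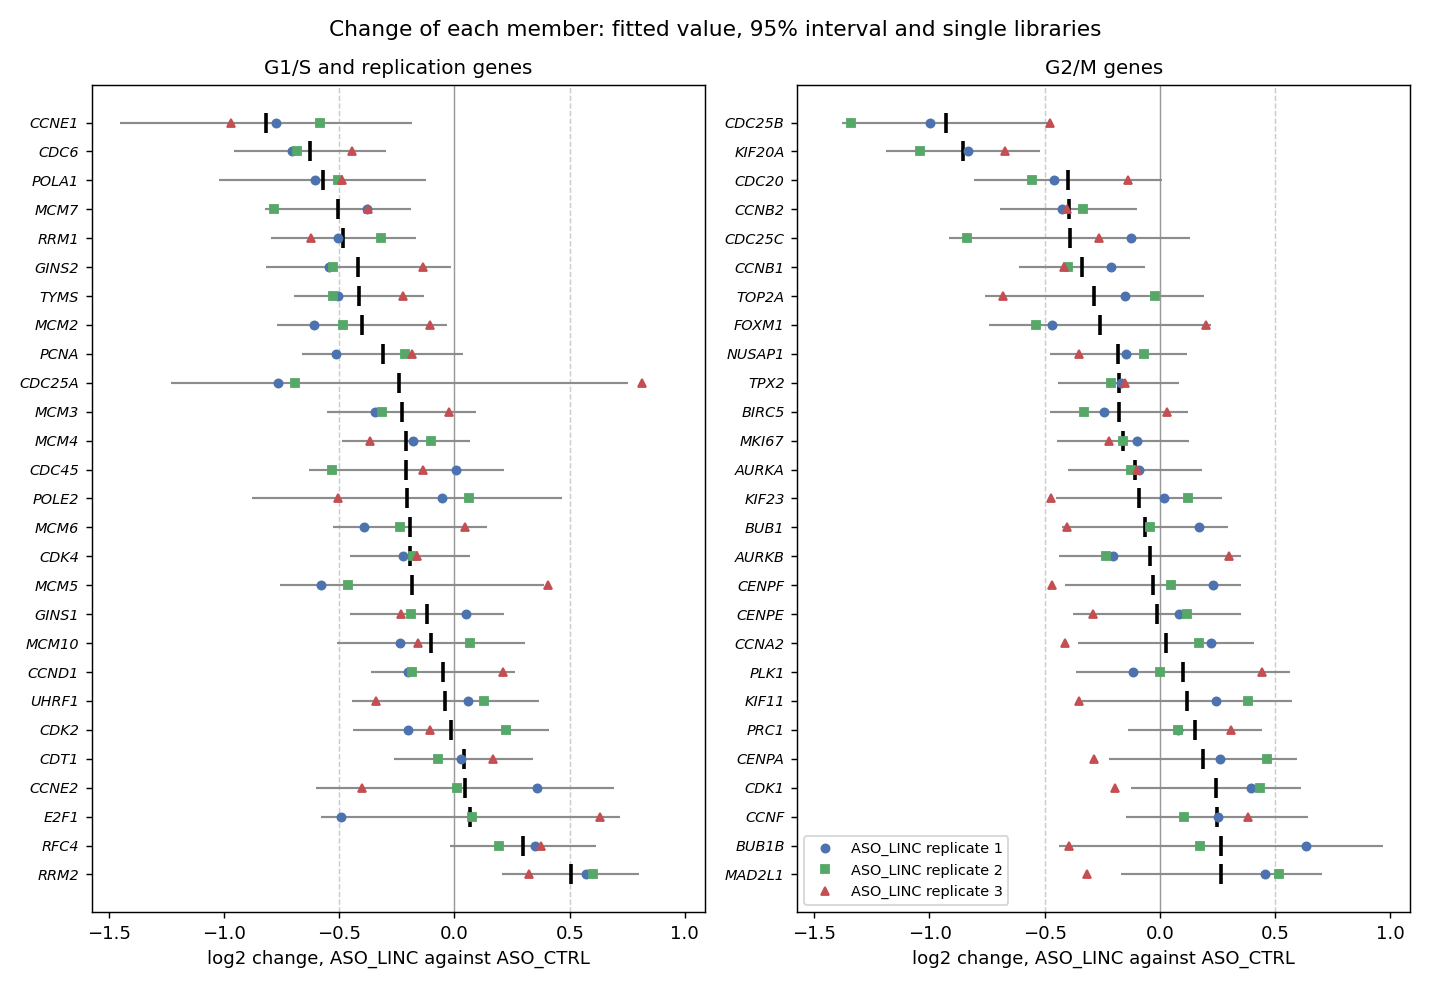
Log2 change of each tested member in ASO_LINC against ASO_CTRL, with G1/S and replication genes on the left and G2/M genes on the right. Black bars are fitted values, grey lines their 95% intervals, and coloured symbols the 3 ASO_LINC libraries against the mean of ASO_CTRL; most bars lie between -0.5 and 0, and the red triangles of replicate 3 often lie on the other side of 0 from the blue and green symbols.

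The arms differed little in their fitted values. In the G1/S arm 22 of 27 members were below 0, with a median of -0.21, and in the G2/M arm 18 of 27 were below 0, with a median of -0.09. Summed over the 27 genes of the G1/S arm, the level was 1926, 2063 and 2022 CPM in ASO_CTRL and 1670, 1700 and 1841 CPM in ASO_LINC. All knockdown libraries lay under all controls. For the G2/M arm the sum was 2138, 2074 and 2015 CPM in ASO_CTRL and 2017, 2003 and 1798 CPM in ASO_LINC. Here the groups overlapped by a narrow margin. The ratio of the G1/S sum to the G2/M sum was 0.901, 0.995 and 1.003 in ASO_CTRL and 0.828, 0.849 and 1.024 in ASO_LINC. It was lowest in ASO_LINC replicates 1 and 2 and highest in replicate 3, so the groups did not separate in this ratio. Abundant genes weigh most in such sums, and the ratio alone does not place the differences in 1 arm.

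**Figure D2:**
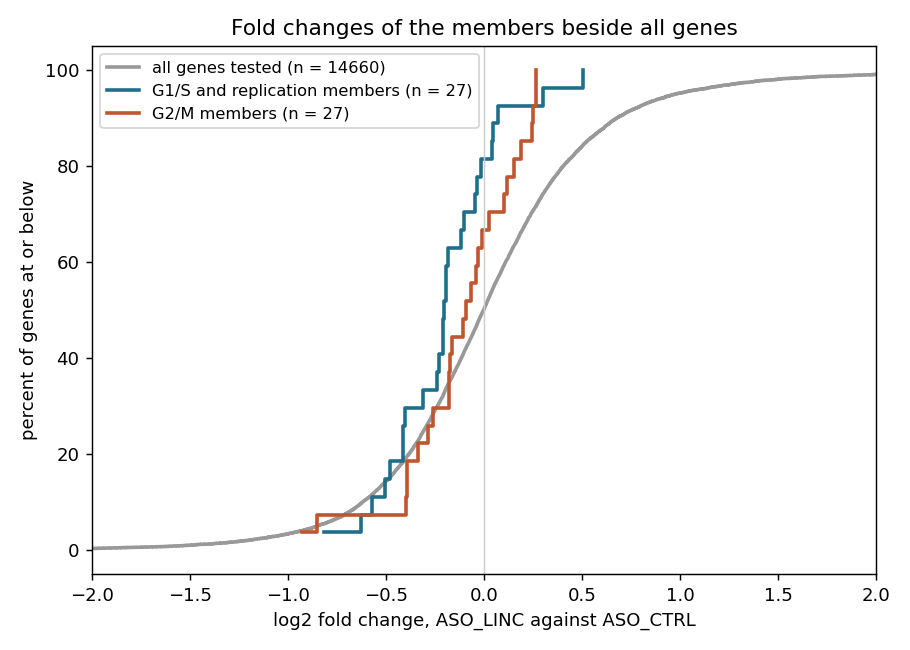
Percent of genes at or below each log2 fold change (ASO_LINC against ASO_CTRL) for the 27 tested members of each arm and for all 14660 genes tested. Both member curves are steeper than that of all genes and lie to its left around 0, with 81.5% of G1/S members and 66.7% of G2/M members below 0 against 50.3% of all genes.

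Among the 12 genes of origin licensing and the replicative helicase, 11 had a fold change below 0 and the median was -0.21, but none was called. *CDC6*, the loader of the MCM helicase, was the nearest to a call. It stood at 40.3, 36.0 and 43.7 CPM in ASO_CTRL and at 24.3, 24.8 and 29.2 CPM in ASO_LINC, so every knockdown library lay under every control. The log2 fold change was -0.63 (SE 0.15, n = 3 per group) with an adjusted p of 0.0162 in edgeR's quasi-likelihood test. *MCM7*, a subunit of the helicase ring, stood at 157, 146 and 161 CPM in ASO_CTRL and at 118, 89.5 and 119 CPM in ASO_LINC. Its groups did not overlap either, and its log2 fold change was -0.50 (SE 0.14) with an adjusted p of 0.0341 by the same test. *MCM7* overlaps *AP4M1* on the opposite strand, which had a fold change of 0.26 and was not called. The other ring subunits had smaller values, from -0.40 for *MCM2* to -0.18 for *MCM5*, and of these only the *MCM4* libraries did not overlap. *CDT1*, the partner of *CDC6* in loading, had a log2 fold change of 0.04, with an interval from -0.26 to 0.34.

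The helicase ring is known to hold its subunits, as proteins, in equal numbers. The changes of its transcripts in single libraries, which do not measure the proteins, were unequal. In ASO_LINC replicates 1 and 2 the change of *MCM5* was -0.58 and -0.46, and in replicate 3 it was 0.41. *MCM4* had -0.18, -0.10 and -0.37 in the same libraries. After the correction for GC content and length described below, *MCM5* had -0.54, -0.38 and 0.16, and *MCM4* had -0.25, -0.16 and -0.35. The helicase partners *CDC45*, *GINS1* and *MCM10* had fold changes of -0.21, -0.12 and -0.10, and their groups overlapped. *GINS2* had -0.42 with an adjusted p of 0.139 in edgeR's test, again with overlapping groups.

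The polymerase and clamp genes did not move as 1 group. *POLA1*, the catalytic subunit of the polymerase that starts each new strand, stood at 9.40, 7.72 and 9.52 CPM in ASO_CTRL and at 5.72, 6.15 and 6.22 CPM in ASO_LINC. The groups did not overlap, and the log2 fold change was -0.57 (SE 0.20) with an adjusted p of 0.0752 in edgeR's test. *RFC4*, a subunit of the clamp loader, went the other way. It stood at 36.8, 41.2 and 47.0 CPM in ASO_CTRL and at 52.9, 47.5 and 53.8 CPM in ASO_LINC, and every knockdown library lay above every control. Its log2 fold change of 0.30 (SE 0.14) had an adjusted p of 0.178 by the same test. *RFC4* overlaps *EIF4A2* on the opposite strand, whose fold change was 0.14. Of the 55 members, 19 overlap another gene of the table, and whether reads were counted by strand is not given in the sources used here, so reads of such pairs may be shared. The sliding clamp gene *PCNA* had -0.31 and *POLE2* had -0.21, both with overlapping groups.

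The 3 genes of nucleotide supply had separated groups, in opposite directions. Of all genes tested, 17.3% had separated groups with ASO_LINC lower and 18.8% with ASO_LINC higher. With so few genes the count is not read as a trait of this role group. Ribonucleotide reductase is built from a large subunit, *RRM1*, and a small subunit, *RRM2*. *RRM1* stood at 126, 100 and 106 CPM in ASO_CTRL and at 77.7, 88.4 and 71.7 CPM in ASO_LINC, a log2 fold change of -0.48 (SE 0.14) with an adjusted p of 0.0398 in edgeR's test. *RRM2* stood at 93.8, 112 and 102 CPM in ASO_CTRL and at 152, 155 and 128 CPM in ASO_LINC, a log2 fold change of 0.50 (SE 0.13) with an adjusted p of 0.0262 by the same test. Both missed the threshold, with the groups fully apart for each gene. The ratio of *RRM2* to *RRM1* CPM, which is not per length and so is read only across libraries, was 0.745, 1.11 and 0.957 in ASO_CTRL and 1.96, 1.75 and 1.78 in ASO_LINC. All 3 knockdown libraries lay above all controls in this ratio. The pair was set side by side after its values were seen, so no test is given.

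*TYMS*, thymidylate synthase, stood at 322, 317 and 340 CPM in ASO_CTRL and at 229, 226 and 280 CPM in ASO_LINC. The groups did not overlap, and the log2 fold change was -0.41 (SE 0.13) with an adjusted p of 0.0465 in edgeR's test. *TYMS* overlaps *ENOSF1* on the opposite strand, whose own fold change was 0.03.

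**Figure D3:**
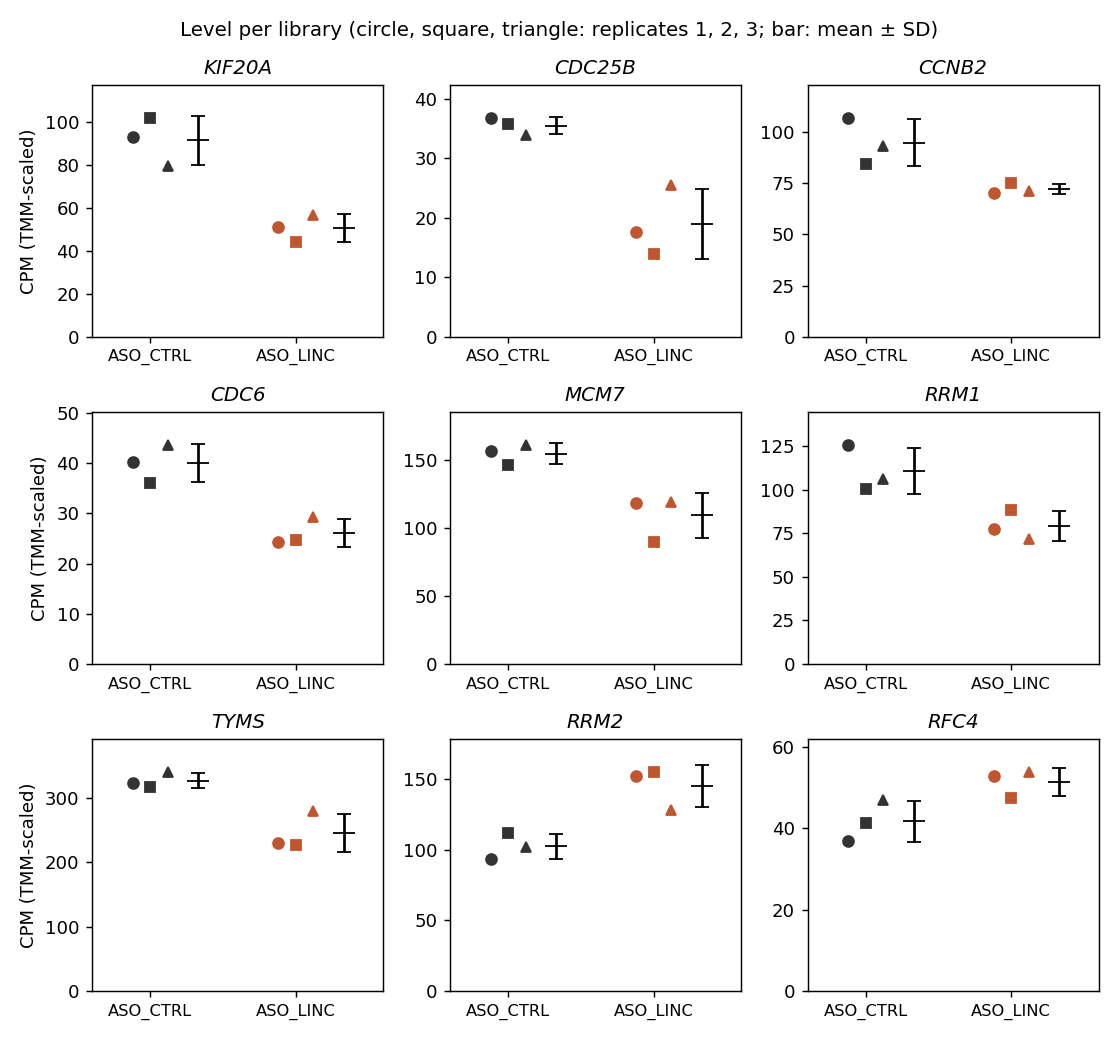
CPM of 9 members in each library, with ASO_CTRL in grey and ASO_LINC in orange; circle, square and triangle are replicates 1, 2 and 3, and the bar beside them is the mean ± SD of 3 libraries. In every panel the groups do not overlap: *KIF20A*, *CDC25B*, *CCNB2*, *CDC6*, *MCM7*, *RRM1* and *TYMS* lie lower in ASO_LINC, *RRM2* and *RFC4* higher.

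Of the 8 regulators of G1/S entry, 6 were below 0, with a median of -0.04. *CCNE1*, 1 of the cyclin E genes, stood at 3.63, 3.78 and 3.05 CPM in ASO_CTRL and at 1.91, 2.22 and 1.62 CPM in ASO_LINC. The groups did not overlap at these low levels, which rest on 6 to 32 reads per library. The log2 fold change was -0.82 (SE 0.29) with an adjusted p of 0.0724 in edgeR's test. The sister gene *CCNE2* had 0.05, with an interval from -0.60 to 0.69. *E2F1*, the factor whose targets make up much of this arm, stood at 5.11, 5.15 and 6.28 CPM in ASO_CTRL and at 3.81, 5.81 and 8.65 CPM in ASO_LINC. Its knockdown libraries lay on both sides of the controls, and the log2 fold change was 0.07 (SE 0.29). *CDK2* had -0.01 and *CCND1*, cyclin D1, had -0.05. *CDK4*, the partner of cyclin D, had -0.19 with groups that did not overlap, from 266 to 309 CPM in ASO_CTRL and from 246 to 257 CPM in ASO_LINC.

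In the G2/M arm, the genes around CDK1 showed the largest spread among themselves. *CDC25B*, a phosphatase that activates CDK1, stood at 36.8, 35.7 and 34.0 CPM in ASO_CTRL and at 17.6, 13.8 and 25.4 CPM in ASO_LINC. The groups were well apart. The log2 fold change of -0.93 (SE 0.20) was the most negative of all members tested, and its adjusted p of 0.0112 in edgeR's test lay just outside the threshold. The other G2/M phosphatase of the family, *CDC25C*, had -0.39 with an adjusted p of 0.285, although its libraries did not overlap. The cyclin B genes both lay lower in every knockdown library. *CCNB2* stood at 107, 84.5 and 93.4 CPM in ASO_CTRL and at 70.4, 75 and 71.4 CPM in ASO_LINC, and *CCNB1* went from 169 ± 8.29 CPM (SD, n = 3) to 133 ± 10.7 CPM. Their log2 fold changes of -0.40 and -0.34 had adjusted p of 0.0653 and 0.0813 in edgeR's test.

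Other genes of the same group did not follow. *CDK1* itself stood at 147, 157 and 153 CPM in ASO_CTRL and at 201, 206 and 133 CPM in ASO_LINC, so that replicates 1 and 2 lay above the controls and replicate 3 under them. *CCNF*, cyclin F, stood at 10.9, 9.96 and 10.1 CPM in ASO_CTRL and at 12.3, 11.1 and 13.5 CPM in ASO_LINC, all above the controls. Its log2 fold change was 0.25 (SE 0.18) with an adjusted p of 0.369 in edgeR's test. *CCNA2*, cyclin A, had 0.03. *FOXM1*, a factor that drives genes of this arm, had -0.26 and overlapping groups.

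*KIF20A* stood at 92.7, 102 and 79.2 CPM in ASO_CTRL and at 50.9, 43.9 and 56.8 CPM in ASO_LINC. Its highest knockdown library lay well under its lowest control. The log2 fold change was -0.85 (SE 0.15, 95% interval from -1.19 to -0.52), with an adjusted p of 0.00403 in edgeR's test. On GRCh37 the gene lies at chr5:137514408-137523412 on the plus strand. It overlaps *BRD8* and *CDC23* on the opposite strand, which had fold changes of -0.21 and -0.25, were not called and had overlapping groups. The call held in only 1 of the 6 fits that leave out a library, the one without ASO_LINC replicate 3, while the fold change stayed between -0.95 and -0.76 and the adjusted p reached 0.0230.

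The other spindle and cytokinesis genes were close to their controls. *TPX2*, which guides spindle assembly, had a log2 fold change of -0.18 with groups that did not overlap. *NUSAP1* had -0.18, and *KIF23*, *KIF11* and *PRC1* had -0.09, 0.12 and 0.15, all with overlapping groups. *PRC1* is known to bundle the microtubules of the central spindle, where *KIF20A* also works, and its interval ran from -0.14 to 0.45.

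None of the 8 mitotic kinase and checkpoint genes tested had separated groups, and the median was -0.05. Of all genes, 17.3% were separated with ASO_LINC lower and 18.8% with it higher, so 8 genes are few for such a count. *CDC20*, the activator of the anaphase-promoting complex, had the smallest p of these. It stood at 85.3, 109 and 69.3 CPM in ASO_CTRL and at 62.7, 58.7 and 78.4 CPM in ASO_LINC, with a log2 fold change of -0.40 (SE 0.18) and an adjusted p of 0.161 in edgeR's test. Without ASO_CTRL replicate 2 the value for *CDC20* was -0.21. The checkpoint gene *MAD2L1* stood at 124, 119 and 139 CPM in ASO_CTRL and at 175, 182 and 102 CPM in ASO_LINC. *BUB1B* stood at 4.17, 3.09 and 2.76 CPM in ASO_CTRL and at 5.28, 3.76 and 2.43 CPM in ASO_LINC. In both, replicate 3 was the lowest of all 6 libraries, and both had a fold change of 0.27, with SE of 0.20 and 0.32. For *MAD2L1* it was 0.48 without ASO_LINC replicate 3, and 0.16 and 0.13 without replicates 1 and 2 of that group. The kinase genes *AURKA*, *AURKB*, *PLK1* and *BUB1* lay between -0.11 and 0.10, and *BIRC5* at -0.18.

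The 5 centromere and chromosome genes likewise had no separated groups, again too few to compare with the 17.3% lower and 18.8% higher of all genes. *TOP2A*, the topoisomerase that untangles sister chromatids, had the smallest p. It stood at 128, 77.8 and 88.6 CPM in ASO_CTRL and at 86.5, 94.6 and 59.8 CPM in ASO_LINC, with a log2 fold change of -0.29 (SE 0.21) and an adjusted p of 0.392 in edgeR's test. The value for *TOP2A* moved with single libraries and was -0.05 without ASO_CTRL replicate 1 and -0.12 without ASO_LINC replicate 3. *MKI67*, which encodes the proliferation marker Ki-67, went from 71.5 ± 6.28 CPM to 63.8 ± 2.72 CPM. Its log2 fold change was -0.16, with an interval from -0.45 to 0.12. *CENPA*, *CENPE* and *CENPF* had 0.19, -0.01 and -0.03.

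Much of the spread within the knockdown group came from replicate 3. There, 11 of 54 members lay below the control mean while replicates 1 and 2 lay above it, and 9 of the 11 were G2/M genes, among them *CDK1*, *MAD2L1*, *KIF11* and *CENPF*. A further 8 members, among them *MCM5*, *FOXM1*, *PLK1* and *AURKB*, did the opposite. The share of all genes with either pattern was not counted. The counts are therefore not read as a trait of the members or of an arm. The members of the first kind had transcripts with a GC content of 35.4% to 54.5%, and those of the second kind 43.2% to 57.1%. Across the 54 members, the change of a library was correlated with GC content at r = -0.43 in replicate 1, -0.40 in replicate 2 and 0.49 in replicate 3, and across 12786 genes of the table with a GC content at -0.20, -0.24 and 0.26. The points of a library share its preparation and depth, so these values describe the libraries and carry no p.

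**Figure D4:**
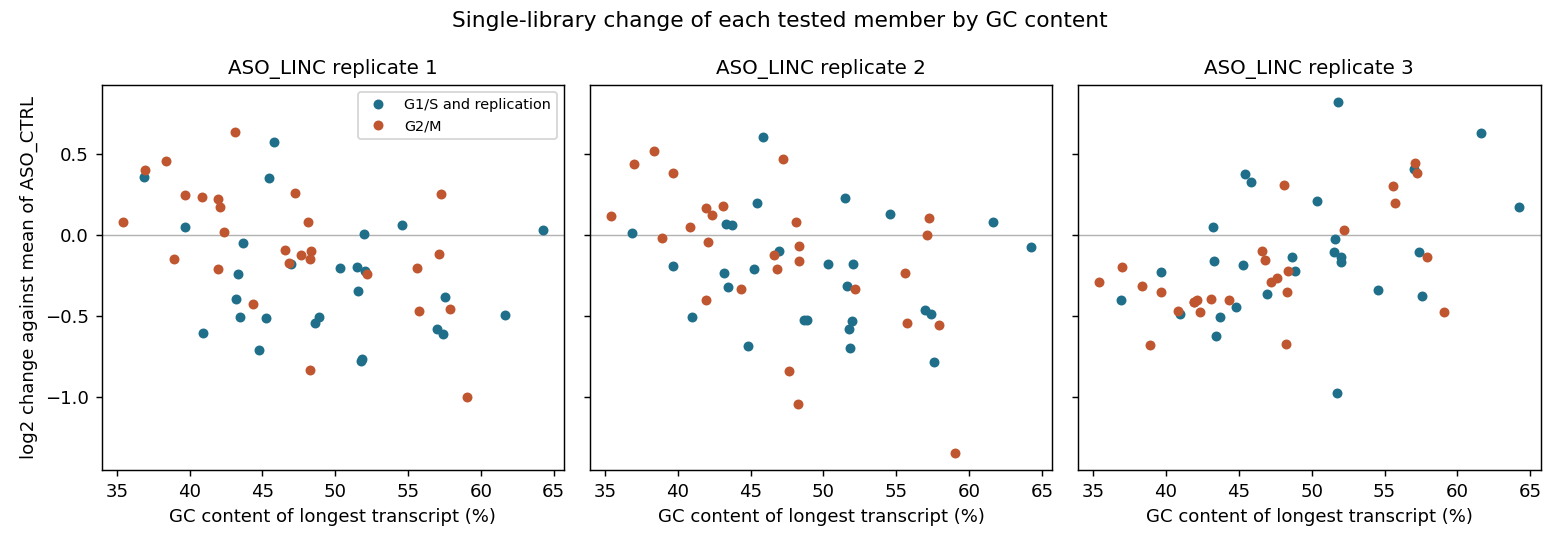
Log2 change of each tested member against the mean of ASO_CTRL, by GC content of its longest transcript in percent, in the 3 ASO_LINC libraries, with G1/S genes in blue and G2/M genes in orange. The points slope down in replicates 1 and 2 (r = -0.43 and -0.40) and up in replicate 3 (r = 0.49).

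This spread bears on the comparison of the arms. The median change of the G1/S arm was -0.34, -0.21 and -0.16 in ASO_LINC replicates 1, 2 and 3, and that of the G2/M arm was -0.10, -0.04 and -0.29. The G1/S arm was thus the lower one in replicates 1 and 2 and the higher one in replicate 3. A correction added after the data were seen took out, library by library, how the levels followed transcript length and GC content. The medians then were -0.35, -0.31 and -0.23 for the G1/S arm and -0.11, -0.13 and -0.23 for the G2/M arm. The G1/S arm was then still the lower one in replicates 1 and 2, and the arms were level in replicate 3. All 6 medians stayed below 0 in both versions.

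Without ASO_LINC replicate 3, 6 members were called lower (*CDC25B*, *CDC6*, *KIF20A*, *MCM2*, *MCM7* and *TYMS*) and *RRM2* was called higher. In that fit 7.81% of all genes were called lower and 9.41% higher, beside 11.1% of the members called lower. With the correction for GC content and length in all 6 libraries, 5 members were called lower (*CDC25B*, *CDC6*, *KIF20A*, *MCM7* and *RRM1*), which is 9.26% of those tested, where 5.37% of all genes were.

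Genes of the same pathway outside the 55, in lists also chosen with earlier results of these data known, were counted in the same way. Of 58 other replication and G1/S genes, 1 was called lower and none higher, with 13 lower and 3 higher at an unadjusted p below 0.05, and 40 were below 0 with a median of -0.13. The gene called was *SKP2*, the F-box protein that marks the CDK inhibitor p27 for breakdown. It stood at 83.0, 84.5 and 80.1 CPM in ASO_CTRL and at 33, 28.9 and 39.8 CPM in ASO_LINC, a log2 fold change of -1.29 (SE 0.15) with an adjusted p of 0.00031 in edgeR's test. *SKP2* was called in all 6 fits that leave out a library, with values from -1.41 to -1.19. Of 70 other G2/M genes, none was called in edgeR, with 3 lower and 4 higher at an unadjusted p below 0.05. Among all genes tested, 15.3% were lower and 17.1% higher at that p. The median of the 70 genes was 0.04, with 31 below 0. This median lies on the other side of 0 from that of the G2/M members.

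The list of brakes on the G1/S step held 11 CDK inhibitors and pocket proteins, of which 10 were tested. *CDKN2D*, the inhibitor p19 of CDK4 and CDK6, rose. It stood at 11, 14.4 and 13.7 CPM in ASO_CTRL and at 35.6, 26.3 and 20.3 CPM in ASO_LINC, a log2 fold change of 1.09 (SE 0.22) with an adjusted p of 0.00723 in edgeR's test. This call too held in only 1 of the 6 fits that leave out a library, again the one without ASO_LINC replicate 3, with an adjusted p of up to 0.0396 and values from 0.85 to 1.25. The inhibitors p21 and p27, encoded by *CDKN1A* and *CDKN1B*, had log2 fold changes of -0.08 and 0.00, with intervals from -0.35 to 0.18 and from -0.40 to 0.39. *CDKN2C*, the inhibitor p18 of the same family as *CDKN2D*, had -0.51 with an adjusted p of 0.0220 in edgeR's test, and the phosphatase gene *CDKN3* had -0.70 with 0.0244. Both had every knockdown library under every control, the opposite side from *CDKN2D*. *RB1*, the retinoblastoma protein, had 1.03 (SE 0.39) with an adjusted p of 0.0911 in edgeR's test and overlapping groups. That value rests on only 17 to 44 reads per library. No gene of this list other than *CDKN2D* was called.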

How the data were processed

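RNA-seq was done on 6 libraries of H226 cells, 3 ASO_CTRL and 3 ASO_LINC, grouped by the sample labels. One paragraph of the study's methods names BJ cells, and the labels name H226. The first strand was made with dT oligos. Per the submitters' processing notes the reads were aligned with STAR to hg19 and edgeR was used. The counting tool, annotation and strand setting are not given in the sources used here. The authors deposited raw counts per gene name, not normalized. The 4 rows of unassigned reads, from 24.8% to 28.1% of each library, were left out.

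The counts were tested in R 4.3.3 with edgeR 4.0.16 (filterByExpr, TMM, quasi-likelihood F-test, Benjamini-Hochberg). CPM are TMM-scaled. The SE is that of the log2 fold change, from its F statistic. The change of a single library is its log2 CPM (2 added as prior count) less the mean over the controls. DESeq2 1.42.0 and limma-voom (limma 3.58.1), scalings, filters, thresholds, glmTreat, a replicate block and leaving out each library were alternatives. The GC and length correction (splines of 5 degrees of freedom, as offsets) was added after seeing the data. Positions and GC content came from GENCODE lifted to GRCh37, where 12786 of 14660 tested genes had a GC content.

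Members and gene lists were chosen with earlier results of these data known. Values per library are given by rule for called members, for the 3 lowest and 3 highest fold changes of each arm, for the smallest p of each role group, and for called genes of the other lists. Further members with values per library were picked after their values were seen. In simulated data of this comparison (14429 genes), a log2 change of 0.5 was called in 3 of 99 genes. A log2 change of 1 was called in 55 of 99, with 0 unchanged genes called. The first size lies at the bound itself, with a median fitted change of 0.507, so many such genes miss the bound at any depth. The changed genes were drawn from all genes tested, whose median SE was 0.20 against 0.17 for the members. Counts of each gene were simulated separately, with no deviation shared across the genes of a library. The real libraries had deviations that followed GC content, so the rates of calls may differ for them. Most differences of the size seen here lie within the bound and would miss a call.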

Additional observations from a re-analysis of the deposited data

How the results depend on the processing

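The median log2 fold changes of both arms stayed below 0 under every alternative, and leaving out each library moved them between -0.23 and -0.18 for G1/S and between -0.15 and -0.05 for G2/M. Counts of calls moved more. Members called lower, 1 in the comparison as reported, were 3 with DESeq2, 2 with limma-voom, 4 at an adjusted p of 0.05, 0 with glmTreat, 5 with the GC and length correction and 0 to 6 when a library was left out. Beside these, all genes called lower, 386 of 14660 as reported, were 634 with DESeq2 and 442 with limma-voom. They were 1043 at an adjusted p of 0.05, 107 with glmTreat and 687 of 12786 with the correction. When a library was left out they were 110 to 1186. Members called higher were 1 at an adjusted p of 0.05 and 0 to 1 when a library was left out. Of all genes, 1422 were called higher at that adjusted p. All genes called, 1107 as reported, were 2465 at an adjusted p of 0.05, 384 with glmTreat, 1673 with the correction and between 359 (without ASO_CTRL replicate 3) and 2614 (without ASO_LINC replicate 3). The other cell cycle genes called, 2 as reported, were 5 with DESeq2, 9 at an adjusted p of 0.05, 1 with glmTreat, 5 with the correction and 1 to 13 when a library was left out. The cause was not tested.

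With the replicate number as a block, 0 members, 658 of all genes and 1 other cell cycle gene were called. Deviations of libraries with the same number were correlated at 0.059, -0.149 and -0.18, and those of other numbers from -0.142 to 0.194. With 3 libraries per group, these values cannot show whether libraries of the same number were handled together. *KIF20A* and *CDKN2D* missed the threshold under the block, with adjusted p of 0.0144 and 0.0181, and with glmTreat, with 0.0807 and 0.0560. The sign of *E2F1* turned with limma-voom (-0.022), and leaving out a library took it from -0.23 to 0.35 and *BUB1B* from -0.054 to 0.46. Scaling changed no sign of the named genes and no member called. Among the members, depth limits *CCNE1*, *CDC25A*, *BUB1B* and *TTK* most.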
